A study of Homo sapiens with 24 samples.

Results

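The 47 genes described here encode translation initiation and elongation factors of the cytosol, a chosen list taken by symbol from the 61533 genes of the deposited count tables. They fall into 6 factor groups: eIF1 and eIF2 with 8 genes, eIF2B with 5, eIF3 with 12, eIF4 with its binding proteins with 12, eIF5 and eIF6 with 4, and the elongation factors (eEF) with their kinase with 6. The study exposed 4 wild-type human cancer cell lines, Cal27, A375, Fadu and Hth83, to Piezo-CAP, a cold atmospheric plasma, which is an ionised gas cool enough for living cells, from a piezoelectric source, and sequenced their RNA. In each line 3 treated libraries (60 s of plasma) and 3 untreated libraries (0 s) were made from RNA of cells taken at 24 h, 24 libraries in all. Cells grew in DMEM, or MEM for Fadu, with serum. The labels do not say that replicates are separate cultures, so p-values measure only how these libraries scatter, which may be technical.

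Every protein made in the cytosol passes through these factors. eIF2 brings the initiator tRNA to the small ribosomal subunit, eIF3 and eIF1 hold that subunit ready, and the eIF4 proteins bind the mRNA cap and unwind the leader. eIF5 is the GTPase-activating protein of eIF2, and eIF5B joins the large subunit. The elongation factors then deliver aminoacyl-tRNAs and move the ribosome along. A pair of brakes is well known: phosphorylation of eIF2 alpha, which blocks its exchange factor eIF2B, and the 4E-binding proteins, which sequester eIF4E when mTORC1 is inactive. Both act on proteins, and the libraries measure mRNA only. Libraries were bulk RNA, so fewer cells of a kind and less RNA per cell cannot be told apart.

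The libraries held 27882581 to 49514338 counts. All 4 lines carry the label of head and neck cancer cells. Marker levels are the deposited TPM, whose length is close to the whole gene span, so which markers reach 10 TPM depends partly on gene length. Of 12 squamous epithelium markers, 10 reached 10 TPM in untreated Cal27, 12 in Fadu, 11 in Hth83 and 1 in A375. Of 8 melanocyte markers, SOX10 and S100B reached 10 TPM in A375, known elsewhere as a melanoma line, and none did in the other lines. Hth83 is known elsewhere as an anaplastic thyroid carcinoma line, and of 8 thyroid markers PAX8 alone reached 10 TPM there, with TSHR and NKX2-1 at 0, and NKX2-1 did in Fadu. Of 6 leukocyte markers CD14 reached that level in Fadu, and of 5 fibroblast markers COL1A1 did in Cal27 and Fadu. The squamous markers themselves moved with treatment: their summed level was 5856 to 6225 TPM in untreated and 4409 to 4584 TPM in treated Cal27 libraries, 23323 to 24009.9 against 12851 to 13833 TPM in Fadu, 12255 to 12732 against 10409.8 to 11444 TPM in Hth83 and 23.3 to 25.4 against 46.1 to 53.8 TPM in A375. Of the 12 squamous markers 1 rose and 10 fell in Cal27, 4 rose and 8 fell in Fadu, 3 rose and 9 fell in Hth83, and of 5 tested in A375 3 rose and 2 fell. Their part in the results was not tested. Libraries of a group differed by more than counting error, and the biological coefficient of variation was 5.25% in Cal27, 5.12% in A375, 5.07% in Fadu and 6.18% in Hth83.

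In untreated cells the factors were among the more abundant mRNAs. Levels between genes are given per exon length (counts divided by the GENCODE 29 exon length and scaled to one sum per library), because the length behind the deposited TPM is close to the whole gene span. The members' median was 173 in Cal27, 215 in A375, 194 in Fadu and 166 in Hth83, at the 93.4, 96.2, 95.1 and 93.6 percentile of the genes above 1. EEF1A1, the factor that delivers aminoacyl-tRNA, was the highest member in every line, at 7316 ± 136 in Cal27, 7409 ± 119 in A375, 7014 ± 75.5 in Fadu and 7142 ± 180.5 in Hth83 (mean ± SD, n = 3). A375 ranked first, then Cal27, Hth83 and Fadu, and each neighbour in that order was closer than the larger of the 2 SDs. EEF2, the translocase, came next at 4071 ± 7.65, 4239 ± 93.7, 1788 ± 26.3 and 4572 ± 87.7 in the same order of lines, and was lowest in Fadu. The eIF2B group had the lowest median of the 6 groups in each line, at 35.8, 41.9, 43.4 and 52.5, the 68.9, 73.0, 74.2 and 76.5 percentile.

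**Figure D1:**
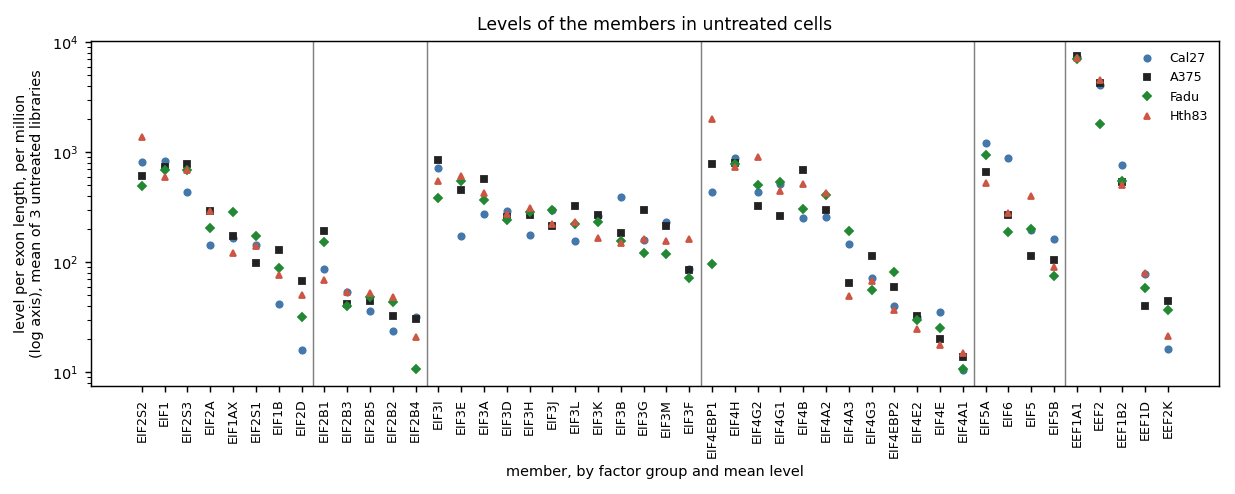
Level per exon length of each of 46 members (horizontal axis, by factor group and mean level) on a log axis, as the mean of 3 untreated libraries in each line. EEF1A1 and EEF2 stand highest, the eIF2B subunits lie low, and EIF4EBP1 spreads most between lines, from 95.5 in Fadu to 2008 in Hth83.

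The largest difference between lines belonged to EIF4EBP1, the 4E-binding protein that is best known as a target of mTORC1. Its level was 2008 ± 38.7 in Hth83, 775 ± 28.9 in A375, 437 ± 12.9 in Cal27 and 95.5 ± 4.38 in Fadu, a ratio of 21.0 between the ends. Between the highest and lowest line the median ratio over 46 members was 2.09, and 17 members varied by less than 2-fold. EIF6, which keeps the ribosomal subunits apart, ranged from 189 ± 3.43 in Fadu to 879 ± 28.8 in Cal27. EIF4E, the cap-binding protein, was low in every line, from 17.6 ± 0.326 in Hth83 to 35.0 ± 1.01 in Cal27, and its relative EIF4E2 lay between 25.0 and 32.6. The 12 listed eIF3 subunits, which belong to one complex, spread 4.05-fold in Hth83 and 10.0-fold in A375 between the lowest and the highest. EIF3C is not on the list. These levels come from tables made per line and are a description.

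A member could not be read and another only in part. EEF1G, a subunit of the exchange complex for EEF1A1, had 0 counts in all 24 libraries, and 99.9% of its exonic bases are shared on the same strand with AP002990.1 in GENCODE 29. EIF4A1, the main helicase of the cap complex, had 356 to 957 counts per library. In EIF4A1 48.6% of exonic bases are shared on the same strand with another gene, and its named pseudogenes held 46.7% to 69.2% of the counts of gene and pseudogenes together. Values of EIF4A1 are uncertain, and the 46 members other than EEF1G were tested in each line.

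After plasma the factors moved by small amounts and in different directions in the 4 lines. The test was edgeR's quasi-likelihood test on counts, 3 treated against 3 untreated libraries, with TMM scaling (which sets the bulk of genes to no change) and Benjamini-Hochberg adjustment over all genes tested, and "rose" and "fell" mean an adjusted p under 0.05. Levels of a library are given as CPM, the count relative to the TMM-scaled library total, comparable between libraries of a line. In Cal27 7 of the 46 rose and 30 fell, where 21.9% of all genes tested rose and 23.2% fell, and the members' median log2 fold change was -0.17. In A375 24 rose and 15 fell, beside 25.7% and 24.8% of all genes, with a median of 0.18. In Fadu 24 rose and 14 fell, beside 26.3% and 27% of all genes, with a median of 0.11. In Hth83 16 rose and 20 fell, beside 25.9% and 24.2% of all genes, with a median of -0.02 that was 0.02 with library size alone and 0.04 on the TPM scale. The medians of all genes tested were 0.00 in Cal27, -0.02 in A375, 0.01 in Fadu and 0.00 in Hth83. Over all genes 45.1%, 50.5%, 53.3% and 50.1% were called in either direction, and the members are more abundant than most genes. Treated and untreated libraries did not overlap in CPM for 39 members in Cal27, 41 in A375, 39 in Fadu and 38 in Hth83, beside 52.7%, 57.9%, 58.6% and 57.2% of all genes tested.

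The direction in Cal27 turned on the TPM scale and under no other alternative: with library size alone 9 members rose and 23 fell. On log2(TPM + 1) with limma 19 of the 46 members rose and 5 fell there, beside 6500 and 1200 of all 17371 genes tested. The median was 0.06 and the median of all genes was 0.14, so the members still lay below the other genes. Counts of factor groups on the TPM scale below stand beside those of all genes. Of all calls in Cal27 48.5% were higher with TMM, 62.4% with library size alone and 84.4% on TPM. The share was 51.0% in A375 against 39.8% with library size alone and 36.8% on TPM, and 49.3% in Fadu against 61.8% with library size alone, where the median of all genes was 0.11 and 31 members rose and 8 fell. In Fadu with library size alone 6491 of all 19152 genes tested rose and 4005 fell. Over 18 alternatives the direction and the call held for 3 of 7 rises and 3 of 30 falls in Cal27, 20 of 24 and 13 of 15 in A375, 17 of 24 and 8 of 14 in Fadu, and 15 of 16 and 15 of 20 in Hth83. The 6 in Cal27 were the rises of EIF4B, EIF4EBP2 and EEF2K and the falls of EIF3K, EIF5A and EIF6. Values for Cal27 below are on the TMM scale.

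Some calls rested on 1 library, given here with the log2 fold change when that library, named by its replicate number, was left out. In Cal27 calls were lost for EIF1AX without untreated 1, untreated 2, treated 1, treated 2 or treated 3 (-0.11 to -0.071), for EIF1B without untreated 2 or treated 2 (-0.19 in each), for EIF2S1 without untreated 1 or treated 3 (-0.11 to -0.099), and for EIF2B5 without untreated 1, untreated 2, treated 2 or treated 3 (-0.15 to -0.11). In A375 calls were lost for EIF2B2 without treated 3 (0.14), for EEF1A1 without untreated 3 (-0.073), and for EEF2K without untreated 2 or treated 2 (-0.11 in each). In Fadu calls were lost for EIF3A without untreated 1, untreated 3, treated 2 or treated 3 (-0.066 to -0.053), for EIF3L without untreated 3 or treated 1 (0.071 to 0.082), for EIF4E2 without untreated 1, untreated 2 or treated 2 (-0.13 to -0.11), for EIF4EBP1 without untreated 3 or treated 3 (0.12 to 0.16), and for EIF4G3 without untreated 1, untreated 3 or treated 1 (-0.093 to -0.076). In Hth83 calls were lost for EIF2B2 without untreated 3 (-0.16), for EIF4H without untreated 1, untreated 2, untreated 3, treated 1 or treated 3 (0.079 to 0.11), and for EIF5 without untreated 1, untreated 3 or treated 2 (-0.13 to -0.084). Calls were gained for EEF1D in Cal27 without treated 2 (-0.11), EIF3G in A375 without untreated 3 (0.11), EIF2D in Fadu without untreated 1 (0.15), EIF4A2 in Fadu without treated 3 (0.089) and EIF3M in Hth83 without treated 3 (-0.12).

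**Figure D2:**
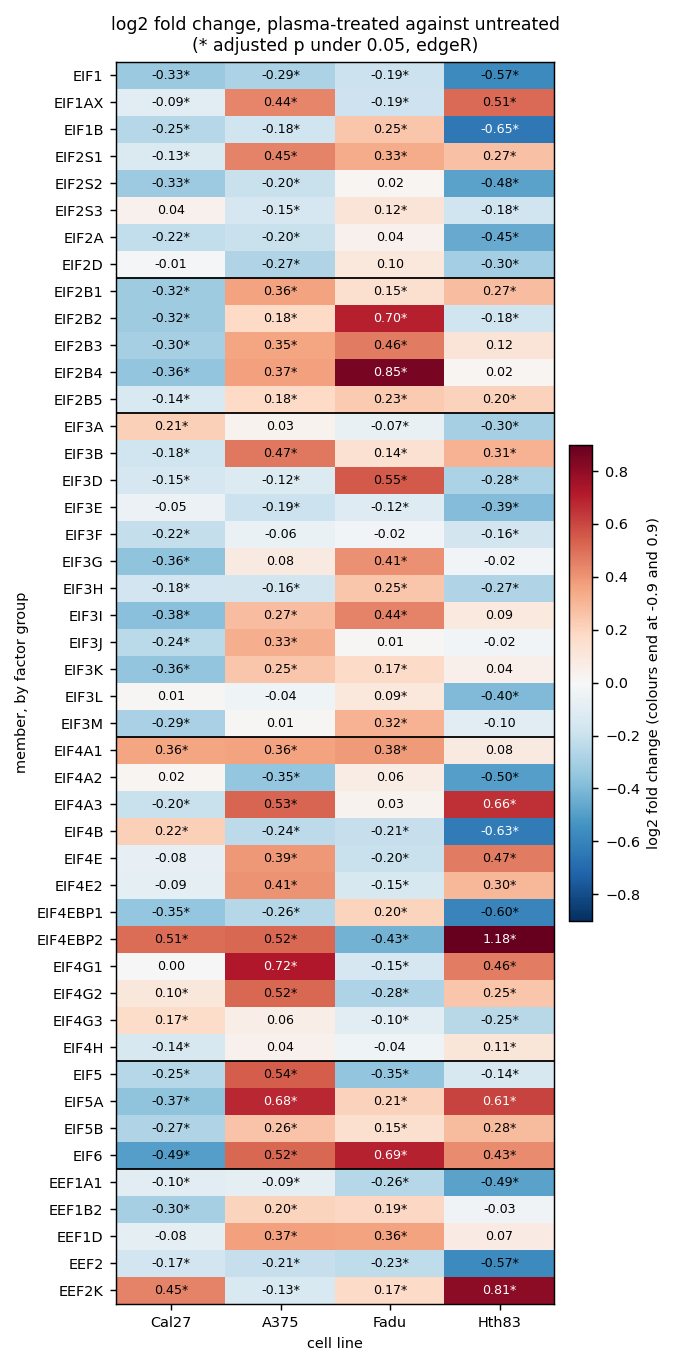
log2 fold change of plasma-treated against untreated libraries for 46 members (rows, by factor group) in 4 lines (columns), with a star where edgeR's adjusted p was under 0.05. Cal27 is mostly blue (30 fell with this TMM scaling and 5 on the TPM scale), A375 and Fadu mostly red (24 rose in each), and EIF1, EEF1A1 and EEF2 are blue in all columns, the last 2 with the sign turned in Cal27 on the TPM scale.

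In the eIF1 and eIF2 group 6 of 8 members fell in Cal27, A375 and Hth83, with 0, 2 and 2 that rose, and in Fadu 3 rose and 2 fell. On the TPM scale 3 rose and 0 fell in Cal27. EIF1, which monitors start-codon choice on the scanning ribosome, fell in all 4 lines, though not past the test in Cal27 on the TPM scale (-0.10). In Hth83 its level went from 495, 465 and 502 CPM untreated to 330.2, 328 and 325 CPM treated (log2 fold change -0.57 ± 0.04, adjusted p = 2.18e-12), the deepest fall. In Cal27 it went from 753, 723 and 769.6 CPM untreated to 619.6, 571 and 591 CPM treated (log2 fold change -0.33 ± 0.03, adjusted p = 1.46e-09). In A375 and Fadu the falls were shallower. A375 went from 588, 545 and 579 CPM untreated to 482, 439 and 483 CPM treated (log2 fold change -0.29 ± 0.04, adjusted p = 1.79e-07), and Fadu from 572, 575 and 574 CPM untreated to 519.8, 502 and 481 CPM treated (log2 fold change -0.19 ± 0.03, adjusted p = 3.25e-08). Treated and untreated libraries did not overlap in any line. The rarer paralog EIF1B fell with it in 3 lines, most in Hth83, from 32.8, 32.3 and 33.3 CPM untreated to 22.5, 21.0 and 19.4 CPM treated (log2 fold change -0.65 ± 0.08, adjusted p = 3.24e-08), and rose in Fadu, from 36.3, 39.9 and 39.7 CPM untreated to 44.4, 46.4 and 47.1 CPM treated (log2 fold change 0.25 ± 0.06, adjusted p = 2.11e-04). In Cal27 and A375 EIF1B changed by -0.25 ± 0.09 and -0.18 ± 0.05, the former with the opposite sign (0.02) after removal of the trend with gene length. The Fadu rise of EIF1B did not pass after that removal (0.11).

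The 3 subunits of eIF2 did not move together. EIF2S1, the alpha subunit that the stress kinases phosphorylate, rose in A375, from 117, 115 and 122 CPM untreated to 169, 152 and 162 CPM treated (log2 fold change 0.45 ± 0.04, adjusted p = 2.45e-10). It rose in Fadu, from 219, 228 and 227 CPM untreated to 284, 293 and 272 CPM treated (log2 fold change 0.33 ± 0.03, adjusted p = 1.13e-14). In Hth83 it rose, from 183, 179 and 174 CPM untreated to 209, 207 and 228 CPM treated (log2 fold change 0.27 ± 0.05, adjusted p = 2.17e-05). In Cal27 it fell, from 211, 199 and 199.6 CPM untreated to 181, 195 and 182 CPM treated (log2 fold change -0.13 ± 0.04, adjusted p = 0.00796), a fall that had the opposite sign on the TPM scale (0.10). The treated libraries lay above the untreated ones in 3 lines and below them in Cal27. EIF2S2, the beta subunit that contacts eIF5, fell by 0.33 in Cal27, 0.20 in A375 and 0.48 in Hth83 on the log2 scale and was at 0.02 ± 0.03 in Fadu (adjusted p = 0.714). EIF2S3, the gamma subunit that binds GTP and the tRNA, ranged from -0.18 in Hth83 to 0.12 in Fadu. EIF1AX, the partner of EIF1, took the pattern of the alpha subunit in A375 and Hth83 (0.44 and 0.51) and fell in Fadu (-0.19). EIF2A and EIF2D, a pair of alternative initiator tRNA carriers, both fell in A375 (-0.20 and -0.27) and Hth83 (-0.45 and -0.30). EIF2D was among the 3 largest falls of A375, from 118, 113 and 119 CPM untreated to 99.3, 96.9 and 95.0 CPM treated (log2 fold change -0.27 ± 0.04, adjusted p = 2.14e-06).

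The 5 eIF2B subunits, which form the exchange factor that reloads eIF2 with GTP, shared a direction in 3 of the lines. All 5 fell in Cal27 with TMM scaling (median -0.32) and 0 on the TPM scale (median -0.08), all 5 rose in A375 (median 0.35) and in Fadu (median 0.46), and in Hth83 2 rose, 1 fell and 2 did not pass (median 0.12). EIF2B4, the delta subunit, had the largest rise of any member in Fadu, from 12.8, 13.2 and 13.5 CPM untreated to 22.7, 23.3 and 25.4 CPM treated (log2 fold change 0.85 ± 0.09, adjusted p = 3.63e-15), and its untreated level there was the lowest of the 4 lines (10.8 per exon length). EIF2B2, the beta subunit, followed, from 53.3, 54.7 and 53.7 CPM untreated to 85.6, 87.6 and 89.4 CPM treated (log2 fold change 0.70 ± 0.05, adjusted p = 4.29e-24). All treated Fadu libraries lay above all untreated ones for both. EIF2B1, the alpha subunit that senses phosphorylated eIF2, was at -0.32, 0.36, 0.15 and 0.27 in Cal27, A375, Fadu and Hth83. EIF2B5, the catalytic epsilon subunit, was at -0.14, 0.18, 0.23 and 0.20, and its fall in Cal27 changed sign on the TPM scale (0.10). On that scale 3 of the 5 rose in A375, where EIF2B2 (0.08) and EIF2B5 (0.09) did not pass, and 5 in Fadu. EIF2B3, the gamma subunit and partner of epsilon, was at -0.30, 0.35, 0.46 and 0.12, the last not past the test. The effect on EIF2B4 differed between Cal27 and Fadu by -1.23 ± 0.10, adjusted p = 2.87e-15 in the joint fit.

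**Figure D3:**
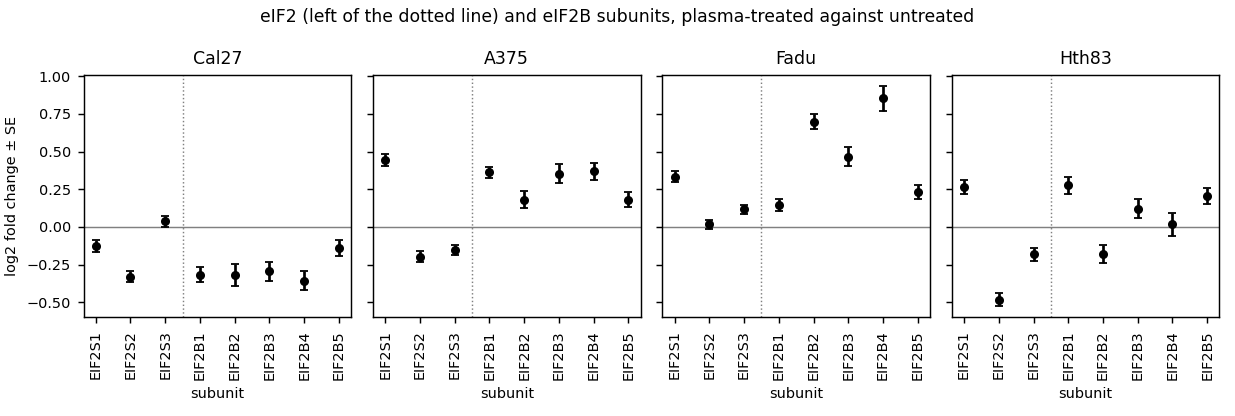
log2 fold change ± SE of the 3 eIF2 subunits and the 5 eIF2B subunits (horizontal axis) in each line, from edgeR on 3 treated and 3 untreated libraries. The 5 eIF2B points lie below 0 in Cal27 (with EIF2B5 above 0 on the TPM scale) and above 0 in A375 and Fadu, with EIF2B4 highest in Fadu at 0.85, while eIF2 subunits lie on both sides of 0.

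The 12 listed subunits of eIF3, the scaffold of the initiation complex, split within each line. In Cal27 1 rose and 9 fell (3 and 3 on the TPM scale), in A375 4 rose and 3 fell, in Fadu 8 rose and 2 fell and in Hth83 1 rose and 6 fell. EIF3B, a core subunit, changed by -0.18 in Cal27, 0.47 in A375, 0.14 in Fadu and 0.31 in Hth83, all past the test, with the sign turned in Cal27 on the TPM scale (0.06). Its treated libraries lay on 1 side of the untreated ones in each line. EIF3I, a small partner of EIF3B, was among the 3 largest falls of Cal27, from 315, 316 and 299.7 CPM untreated to 248, 227 and 242 CPM treated (log2 fold change -0.38 ± 0.04, adjusted p = 9.81e-10), and rose in Fadu, from 153, 158 and 147 CPM untreated to 209.6, 204 and 209 CPM treated (log2 fold change 0.44 ± 0.04, adjusted p = 2.14e-19). Its libraries did not overlap in either line. EIF3G, the third protein of that module, gave -0.36 in Cal27, 0.08 in A375, 0.41 in Fadu and -0.02 in Hth83, passing in Cal27 and Fadu. EIF3E, EIF3H, EIF3L and EIF3D fell in Hth83, at -0.39, -0.27, -0.40 and -0.28. EIF3D, which can bind caps itself, rose in Fadu, from 235, 221 and 222 CPM untreated to 329, 326 and 338 CPM treated (log2 fold change 0.55 ± 0.03, adjusted p = 5.06e-27). It fell in the other lines, in Cal27 with the sign turned on the TPM scale (0.08), and Fadu differed from Hth83 by 0.85 ± 0.05, adjusted p = 8.27e-19. EIF3A, the largest subunit, rose in Cal27 (0.21 ± 0.03), fell in Hth83 (-0.30 ± 0.04) and fell in Fadu (-0.07 ± 0.03), the last with the opposite sign (0.03) with library size alone. The other listed subunits, EIF3F, EIF3J, EIF3K and EIF3M, all fell in Cal27, between -0.36 (EIF3K) and -0.22 (EIF3F), with the sign of EIF3F turned on the TPM scale (0.02). EIF3J and EIF3K rose in A375 (0.33 and 0.25), and EIF3K and EIF3M rose in Fadu (0.17 and 0.32), that of EIF3K not past the test with the trend of exon length and GC removed (0.03). In Hth83 EIF3F fell (-0.16, not past the test on the TPM scale) and the other 3 did not pass.

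The eIF4 group and its binding proteins held the largest single change of the set. In Cal27 5 of 12 rose and 3 fell (10 and 0 on the TPM scale), in A375 7 and 3, in Fadu 2 and 7, and in Hth83 7 and 4. EIF4EBP2, a 4E-binding protein, had the largest rise of any member in Cal27 and in Hth83. In Hth83 it went from 60.6, 58.4 and 60.7 CPM untreated to 137, 134 and 137 CPM treated (log2 fold change 1.18 ± 0.05, adjusted p = 3.83e-18). In Cal27 it went from 74.2, 71.7 and 75.1 CPM untreated to 107, 101 and 107 CPM treated (log2 fold change 0.51 ± 0.05, adjusted p = 1.14e-10). In A375 it rose from 88.3, 97.7 and 94.0 to 135, 133 and 132 CPM (log2 fold change 0.52 ± 0.04, adjusted p = 1.74e-11). In Fadu it was the largest fall, from 134, 140.4 and 132 CPM untreated to 102, 101 and 99.5 CPM treated (log2 fold change -0.43 ± 0.04, adjusted p = 4.67e-16). The treated libraries therefore lay above all untreated ones in 3 lines and below them in Fadu, and the direction and call held in all alternatives in each line. The effect in Hth83 exceeded that in Fadu by 1.59 on the log2 scale (Fadu minus Hth83 -1.59 ± 0.06, adjusted p = 7.94e-27).

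EIF4EBP1 moved against EIF4EBP2. It fell in Hth83, the line with the highest level, from 493, 468 and 495 CPM untreated to 334, 312 and 317 CPM treated (log2 fold change -0.60 ± 0.04, adjusted p = 1.13e-12). It fell in Cal27, from 121, 119 and 113 CPM untreated to 98.1, 87.6 and 92.4 CPM treated (log2 fold change -0.35 ± 0.05, adjusted p = 2.50e-07), a fall with the opposite sign (0.14) after removal of the trend with exon length and GC. In A375 it fell, from 183, 169 and 182 CPM untreated to 156, 147 and 144 CPM treated (log2 fold change -0.26 ± 0.04, adjusted p = 2.89e-06). In Fadu, where the level was lowest, it rose with overlapping libraries, from 24.2, 23.9 and 22.1 CPM untreated to 26.9, 24.1 and 29.8 CPM treated (log2 fold change 0.20 ± 0.08, adjusted p = 0.0236). That rise did not pass without untreated replicate 3 (0.16) or treated replicate 3 (0.12), and its sign turned (-0.04) with the trend removed. EIF4E, the protein both bind, rose in A375, from 60.3, 57.7 and 64.6 CPM untreated to 78.9, 79.8 and 80.9 CPM treated (log2 fold change 0.39 ± 0.05, adjusted p = 5.46e-08). It rose in Hth83, from 57.4, 54.1 and 56.2 CPM untreated to 72.1, 76.6 and 83.2 CPM treated (log2 fold change 0.47 ± 0.06, adjusted p = 8.89e-08). It fell in Fadu, from 82.6, 81.5 and 79.9 CPM untreated to 70.8, 76.3 and 65.4 CPM treated (log2 fold change -0.20 ± 0.05, adjusted p = 2.43e-04), where the sign turned (0.03) with the trend of exon length and GC removed, and it was at -0.08 in Cal27 (adjusted p = 0.158). Named pseudogenes of EIF4E held 8.96% to 14.3% of the counts of gene and pseudogenes together.

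EIF4G1, the scaffold that joins the cap-binding protein to the helicase and eIF3, had the largest rise of A375, from 458, 475 and 468 CPM untreated to 811, 741 and 754 CPM treated (log2 fold change 0.72 ± 0.04, adjusted p = 1.85e-16). It rose in Hth83, from 842, 816 and 839 CPM untreated to 1149, 1109 and 1175 CPM treated (log2 fold change 0.46 ± 0.04, adjusted p = 7.01e-11). In Fadu it fell, from 1016, 1002 and 1022 CPM untreated to 914, 902 and 921 CPM treated (log2 fold change -0.15 ± 0.03, adjusted p = 1.78e-06), a fall that did not pass with library size alone (-0.05), and in Cal27 it was at 0.00 ± 0.03 with overlapping libraries. EIF4G2, which lacks the cap-binding contact, gave 0.10 in Cal27, 0.52 in A375, -0.28 in Fadu and 0.25 in Hth83, and its Fadu value, among the 3 largest falls of that line, rested on 1000.1, 1004 and 1010.3 against 836, 845 and 805 CPM. The Cal27 rise of EIF4G2 did not pass in the joint fit, and its sign turned (-0.11) with the trend of exon length and GC removed. EIF4E2, a second cap-binding protein, gave -0.09 in Cal27, 0.41 in A375, -0.15 in Fadu and 0.30 in Hth83, past the test in all but Cal27, and in Fadu not past it in 6 of 18 alternatives (-0.04 with library size alone). EIF4H, a helper of the helicase, gave -0.14 in Cal27, 0.04 in A375, -0.04 in Fadu and 0.11 in Hth83, past the test in Cal27 and Hth83. The Hth83 rise of EIF4H lost its call in 7 of 18 alternatives, 5 of them with 1 library left out, and was 0.03 with the trend of exon length and GC removed. EIF4H had the opposite sign in Cal27 on the TPM scale (0.09). EIF4G3 gave smaller changes (0.17 in Cal27, 0.06 in A375, -0.10 in Fadu and -0.25 in Hth83), of which the Fadu fall changed sign with library size alone and with either trend removed, and the Cal27 rise with the trend of exon length and GC removed. The helicase EIF4A2 had the largest fall of A375, from 389, 389 and 402 CPM untreated to 304, 305 and 318 CPM treated (log2 fold change -0.35 ± 0.03, adjusted p = 6.58e-10), and fell in Hth83, from 601, 607 and 574 CPM untreated to 424, 440.2 and 399.9 CPM treated (log2 fold change -0.50 ± 0.04, adjusted p = 7.95e-11). EIF4A2 stood at 0.02 in Cal27 and 0.06 in Fadu, with neither past the test. The treated and untreated A375 and Hth83 libraries of EIF4A2 did not overlap. EIF4A3, its relative in the exon junction complex, was among the largest rises of Hth83, from 55.4, 56.2 and 52.6 CPM untreated to 87.4, 79.2 and 92.2 CPM treated (log2 fold change 0.66 ± 0.06, adjusted p = 1.23e-10) and rose in A375 (0.53). EIF4A1 was at 0.36 ± 0.09 in Cal27, 0.36 ± 0.09 in A375, 0.38 ± 0.09 in Fadu and 0.08 ± 0.09 in Hth83. In Cal27 its libraries, few in counts, went from 14.4, 13.5 and 13.8 CPM untreated to 19.5, 17.1 and 16.9 CPM treated (log2 fold change 0.36 ± 0.09, adjusted p = 0.00148), among the 3 largest rises of that line. With pseudogene counts added its Cal27 value was -0.05. EIF4B, which stimulates the helicase, fell in Hth83, from 693, 699.7 and 751 CPM untreated to 460.0, 483 and 440.1 CPM treated (log2 fold change -0.63 ± 0.04, adjusted p = 6.06e-13), fell in A375 (-0.24) and Fadu (-0.21), and rose in Cal27, from 397, 385 and 392 CPM untreated to 475, 440.2 and 448 CPM treated (log2 fold change 0.22 ± 0.04, adjusted p = 5.21e-06).

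**Figure D4:**
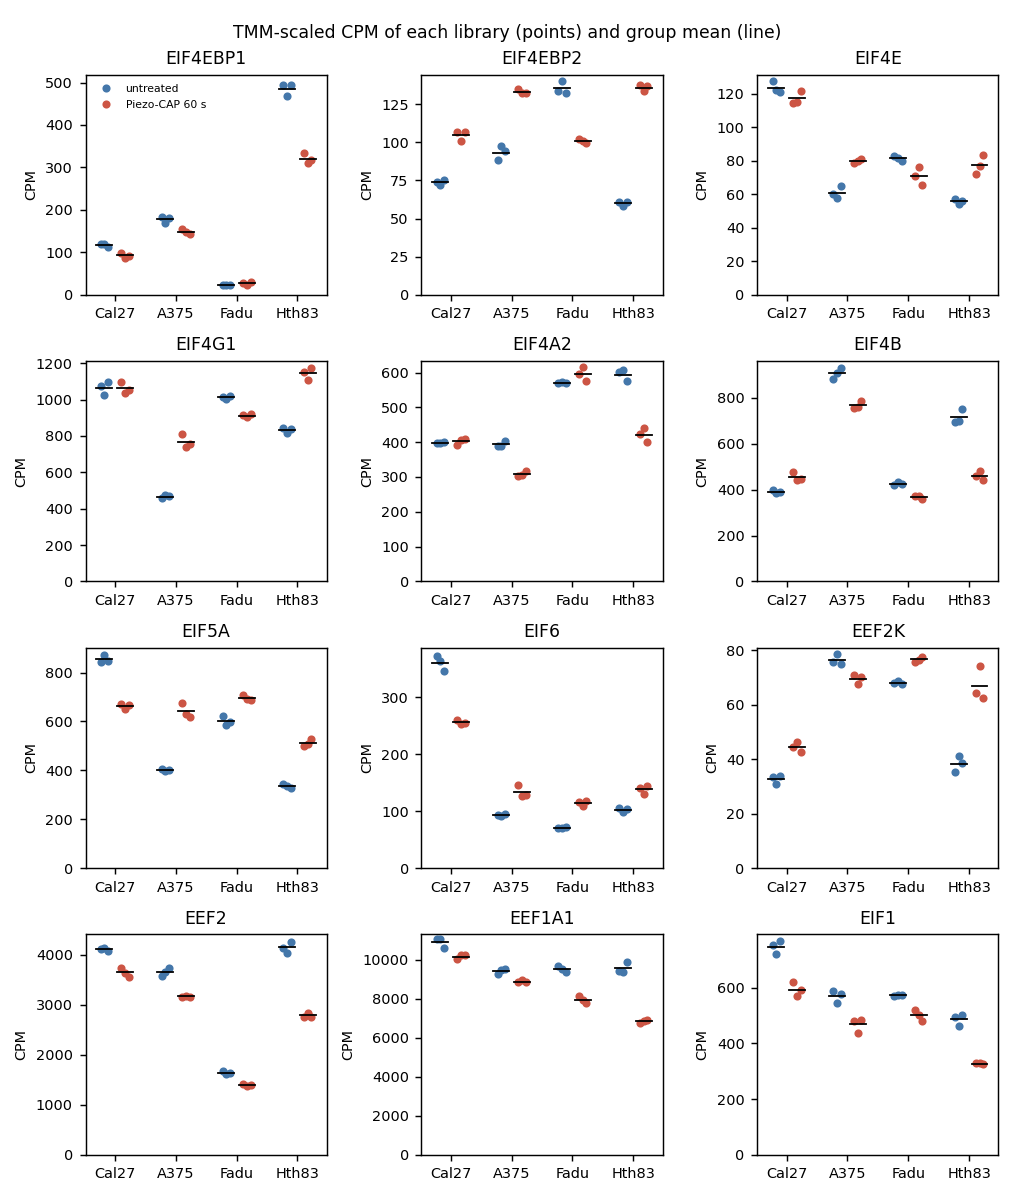
TMM-scaled CPM of 12 members in each library (points, 3 untreated in blue and 3 plasma-treated in red per line) with group means (black lines), each axis starting at 0. EIF4EBP2 is higher after plasma in Cal27, A375 and Hth83 and lower in Fadu, and EEF2, EEF1A1 and EIF1 are lower in every line, in Cal27 with the signs of EEF2 and EEF1A1 turned on the TPM scale.

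The promoters of EIF4G1 and EIF4E are shown because both genes rose in A375 and Hth83 and each carries the E-box CACGTG, the palindromic site that MYC family and other basic helix-loop-helix factors bind, more than once. RefSeq windows of 300 bases (250 before to 50 after a start, GRCh38.p14) were at hand for 39 of the 47 members, 9 of them with several starts. The E-box, the same on both strands, lay in 10 of 53 windows of the members (18.9%) and in 7.26% of all 35116 windows. These are the 250 bases before an annotated start, 5′ to 3′, for EIF4G1 (chr3:184314356-184314605, plus strand) and EIF4E (chr4:98929134-98929383, minus strand), with the E-boxes in capitals.
EIF4G1: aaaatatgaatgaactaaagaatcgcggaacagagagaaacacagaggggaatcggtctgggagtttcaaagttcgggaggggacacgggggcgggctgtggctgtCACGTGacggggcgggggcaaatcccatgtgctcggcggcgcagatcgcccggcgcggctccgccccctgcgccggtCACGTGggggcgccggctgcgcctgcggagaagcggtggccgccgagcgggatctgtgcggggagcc
EIF4E: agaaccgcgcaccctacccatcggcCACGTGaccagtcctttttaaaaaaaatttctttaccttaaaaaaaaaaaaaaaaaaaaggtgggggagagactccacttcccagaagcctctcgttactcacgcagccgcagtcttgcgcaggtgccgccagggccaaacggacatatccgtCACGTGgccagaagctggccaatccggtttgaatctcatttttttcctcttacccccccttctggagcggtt
In EIF4G1 the sites begin 144 and 67 bases before the start shown, and in EIF4E 225 and 72. The windows of the other annotated starts of EIF4G1 hold no E-box. Members with an E-box included EIF1B, EIF3F, EIF3K, EIF4A3, EIF4B and EEF2K, whose changes went in different directions. Of the 10 members with one, 2 rose and 6 fell in Cal27, 5 and 3 in A375, 4 and 3 in Fadu and 5 and 3 in Hth83. Of the 29 without one, of which 28 were tested (EEF1G was not), 4 rose and 20 fell, 18 and 8, 15 and 9, and 11 and 11 in the same lines. A match describes letters only.

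All 4 members of the eIF5 and eIF6 group fell in Cal27 (2 of them on the TPM scale) and all 4 rose in A375, and in Fadu and Hth83 3 rose and 1 fell. EIF5A, which carries the modified lysine hypusine and relieves stalled ribosomes, went in Cal27 from 844, 874 and 846 CPM untreated to 672, 650.4 and 669 CPM treated (log2 fold change -0.37 ± 0.03, adjusted p = 3.07e-11). In A375 it went from 406, 398 and 401 CPM untreated to 677, 632 and 618 CPM treated (log2 fold change 0.68 ± 0.04, adjusted p = 7.19e-16). In Hth83 it went from 343, 337 and 327 CPM untreated to 501, 508 and 529 CPM treated (log2 fold change 0.61 ± 0.04, adjusted p = 3.84e-13), and in Fadu it rose, from 623, 586 and 597 CPM untreated to 708, 689.9 and 689 CPM treated (log2 fold change 0.21 ± 0.03, adjusted p = 2.09e-09). No libraries overlapped in any line, and the effect in Cal27 was below that in A375 by 1.02 on the log2 scale (Cal27 minus A375 -1.02 ± 0.05, adjusted p = 3.04e-22). EIF6, the anti-association factor, was the largest fall of Cal27, from 371, 363 and 345 CPM untreated to 260.2, 253 and 254 CPM treated (log2 fold change -0.49 ± 0.04, adjusted p = 6.84e-13), and rose in Fadu, from 69.5, 70.4 and 71.5 CPM untreated to 115, 109 and 117 CPM treated (log2 fold change 0.69 ± 0.04, adjusted p = 6.60e-26). It rose in A375 from 92.7, 91.8 and 95.1 to 146, 127 and 129 CPM and in Hth83 from 106, 98.8 and 103 to 141, 130.1 and 144 CPM. For EIF5A and EIF6 the falls in Cal27 and the rises in A375 and Hth83 held in all alternatives, and the rise of EIF5A in Fadu did not (0.04 after removal of the trend with exon length and GC). Cal27 had the most EIF6 mRNA of the lines, and per exon length its treated mean (705) was still above the treated means of the others (317 to 388). EIF5, the GTPase-activating protein of eIF2, rose in A375, from 209, 207 and 212 CPM untreated to 314, 297 and 304 CPM treated (log2 fold change 0.54 ± 0.04, adjusted p = 8.76e-14) and fell in Fadu, from 388, 389.7 and 384 CPM untreated to 302, 305 and 303 CPM treated (log2 fold change -0.35 ± 0.03, adjusted p = 1.98e-17). It fell in Hth83 by 0.14 with overlapping libraries. EIF5B, which joins the subunits, gave -0.27 in Cal27, 0.26 in A375, 0.15 in Fadu and 0.28 in Hth83.

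Of 5 elongation genes tested, 1 rose and 3 fell in Cal27 (3 and 0 on the TPM scale), 2 and 3 in A375, 3 and 2 in Fadu and 1 and 2 in Hth83. EEF1A1 fell in all lines, with the sign turned in Cal27 on the TPM scale (0.13). It went in Hth83 from 9438, 9389 and 9889.8 CPM untreated to 6780.5, 6838 and 6898 CPM treated (log2 fold change -0.49 ± 0.04, adjusted p = 3.17e-12), and in Fadu from 9658, 9526 and 9382 CPM untreated to 8159.9, 7943 and 7766 CPM treated (log2 fold change -0.26 ± 0.02, adjusted p = 1.57e-17). The changes in Cal27 (log2 fold change -0.10 ± 0.03, adjusted p = 0.00125) and A375 (log2 fold change -0.09 ± 0.03, adjusted p = 0.00932) were smaller, and the latter did not pass without untreated replicate 3. EEF2 fell in Hth83, from 4139, 4042 and 4263 CPM untreated to 2764, 2838 and 2763 CPM treated (log2 fold change -0.57 ± 0.04, adjusted p = 1.59e-13). It fell by 0.21 in A375, by 0.23 in Fadu and by 0.17 in Cal27, the last with the opposite sign on the TPM scale (0.06) and with the trend of exon length and GC removed (0.05). The Hth83 effect was below those of the other lines for EEF1A1, EEF2 and EIF1 in each of the pairwise tests (A375 minus Hth83 for EEF2 0.35 ± 0.04, adjusted p = 1.27e-09). Treated and untreated libraries did not overlap in any line for these 3 genes. EEF2K, the kinase that inactivates eEF2, rose in Hth83, from 35.2, 41.0 and 38.7 CPM untreated to 64.3, 74.0 and 62.5 CPM treated (log2 fold change 0.81 ± 0.07, adjusted p = 7.83e-11) and in Cal27 from 33.4, 30.7 and 33.7 CPM untreated to 44.5, 46.2 and 42.6 CPM treated (log2 fold change 0.45 ± 0.06, adjusted p = 4.90e-07). In Fadu it rose by 0.17, and in A375 it was at -0.13 ± 0.05, which did not pass without untreated or treated replicate 2. EEF1B2 and EEF1D, exchange factors for EEF1A1, rose in A375 (0.20 and 0.37) and Fadu (0.19 and 0.36), against the direction of EEF1A1. The rises of EEF1B2 did not pass in A375 on the TPM scale (0.11) or with the trend of exon length and GC removed (0.08), nor in Fadu with the trend of gene length (0.05) or of exon length and GC (0.06) removed.

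Many elongation factor mRNAs belong to the 5′ TOP class, which begin with a C and a run of pyrimidines at the very start and whose translation follows mTORC1. The starts below are shown because EEF1A1, EEF2 and EIF1 fell in all lines. EIF3F, EIF4B and EIF4EBP2 are shown beside them and also carry a marked run, so no gene shown lacks one. EIF4B is itself on the list of known TOP mRNAs used below. Each line gives 30 bases, 5′ to 3′, from RefSeq (GRCh38.p14), in which base 11 is the annotated start and capitals mark a C followed by at least 4 pyrimidines beginning within 5 bases of that start.
EEF1A1: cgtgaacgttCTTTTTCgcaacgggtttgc
EEF2: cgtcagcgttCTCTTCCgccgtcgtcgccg
EIF1: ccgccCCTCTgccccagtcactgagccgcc
EIF3F: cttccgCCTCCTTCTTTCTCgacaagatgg
EIF4B: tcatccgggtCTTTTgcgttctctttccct
EIF4EBP2: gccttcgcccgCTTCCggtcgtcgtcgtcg
The run marked in EIF1 ends just before its annotated start, so it is near the start and not at the first base, and further pyrimidines precede its capitals. In EIF4EBP2 the annotated start is a g and the marked run begins at the next base.
The windows lie at chr6:73521013-73521042, minus strand (EEF1A1), chr19:3985444-3985473, minus strand (EEF2), chr17:41688875-41688904, plus strand (EIF1), chr11:7987327-7987356, plus strand (EIF3F), chr12:53006446-53006475, plus strand (EIF4B) and chr10:70404135-70404164, plus strand (EIF4EBP2). Such a run began within 5 bases of a start in 20 of 39 matched members (51.3%) and in 25.2% of all 27305 genes with a window. In A375 8 of those 20 rose and 10 fell (median -0.07), and of the 19 without a run, 18 of them tested, 15 rose and 1 fell (median 0.36). In Hth83 5 rose and 11 fell against 11 and 3, in Fadu 6 and 9 against 13 and 3, and in Cal27 4 and 11 against 2 and 15. Of 8 tested members on a list of known TOP mRNAs 1 rose and 5 fell in Cal27 (4 and 0 on the TPM scale), 2 and 5 in A375, 3 and 4 in Fadu and 0 and 6 in Hth83. The split was made after the changes were known and is a description. EIF4EBP2 carries a run just after its annotated start and had the largest rise of any member in Cal27 and Hth83.

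Treatment effects differed between lines for nearly every factor. In a joint fit of all 24 libraries the line by treatment interaction passed for 45 of 46 members, all but EIF4A1 (adjusted p = 0.122), where 56.9% of all genes tested passed. The members that fell in all 4 lines were EIF1, EEF1A1 and EEF2 (1.29% of genes tested in every line did so), with the Cal27 signs of EEF1A1 and EEF2 turned on the TPM scale, and 0 of 46 rose in all 4 (1.35%). A rise in at least 1 line and a fall in at least 1 other was seen for 35 of 46 members, where 44.5% of genes did so. Of the 6 pairs of lines, A375 and Hth83 had the fewest differing members, 28, with 26 higher in A375 and 2 lower, where 27.3% of all genes differed. Cal27 was lower than A375 for 25 members and higher for 7 (35.5% of all genes differed), and lower than Fadu for 27 and higher for 8 (38.4%). Fadu was higher than Hth83 for 27 and lower for 12 (35.7%), Cal27 lower than Hth83 for 23 and higher for 16 (35%), and A375 lower than Fadu for 17 and higher for 13 (36%). The comparisons of a line with 2 others share its libraries.

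The regulators around these factors were taken from lists of 43 other translation genes. Over all genes tested 21.9% rose and 23.2% fell in Cal27, and 25.7% and 24.8% in A375. In Fadu 26.3% rose and 27% fell, and in Hth83 25.9% and 24.2%. Of 6 eIF2 alpha kinases and phosphatase subunits 1 rose and 1 fell in Cal27 and in A375, 1 rose and 5 fell in Fadu and 2 rose and 3 fell in Hth83. PPP1R15A, the stress-induced subunit that directs the phosphatase to eIF2 alpha, fell in Hth83, from 356, 316 and 392 CPM untreated to 63.5, 66.4 and 74.3 CPM treated (log2 fold change -2.38 ± 0.08, adjusted p = 3.65e-12). It fell in Cal27, from 730.4, 735 and 742 CPM untreated to 427, 405 and 413 CPM treated (log2 fold change -0.83 ± 0.03, adjusted p = 1.80e-19), fell in A375 by 0.17 and rose in Fadu, from 61.6, 60.7 and 59.1 CPM untreated to 82.6, 77.9 and 90.8 CPM treated (log2 fold change 0.47 ± 0.05, adjusted p = 3.25e-14). EIF2AK3, the kinase PERK of the endoplasmic reticulum, fell in Fadu, from 38.9, 42.0 and 39.9 CPM untreated to 19.3, 20.6 and 21.2 CPM treated (log2 fold change -0.98 ± 0.07, adjusted p = 1.16e-22) and in Hth83, from 53.6, 54.4 and 58.8 CPM untreated to 23.7, 20.9 and 22.9 CPM treated (log2 fold change -1.30 ± 0.07, adjusted p = 1.37e-15), and was at 0.18 ± 0.08 in Cal27 and 0.07 ± 0.07 in A375, with neither past the test. EIF2AK4, the amino acid sensor GCN2, rose in Hth83 (0.36 ± 0.05). It rose in Cal27 by 0.18, with the sign turned (-0.07) after removal of the exon length and GC trend, and fell in Fadu (-0.20 ± 0.05). PDCD4, which blocks the eIF4A helicases, fell in Fadu, from 56.2, 50.9 and 55.1 CPM untreated to 23.6, 20.3 and 20.6 CPM treated (log2 fold change -1.33 ± 0.07, adjusted p = 4.51e-33) and in Hth83, from 91.5, 95.4 and 101 CPM untreated to 50.5, 57.4 and 46.96 CPM treated (log2 fold change -0.89 ± 0.06, adjusted p = 1.35e-12), fell in A375 (-0.30) and was at 0.03 in Cal27. Treated libraries lay below untreated ones for PDCD4 in those 3 lines.

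The other lists are short, and their counts stand beside the same shares of all genes that rose and fell. Those were 21.9% and 23.2% in Cal27, 25.7% and 24.8% in A375, 26.3% and 27% in Fadu and 25.9% and 24.2% in Hth83. Counts near those shares say nothing particular about a list. Of 13 cap binding, scanning and poly(A) partners tested, 3 rose and 3 fell in Cal27, near those shares, and 0 rose and 4 fell in Hth83. In A375 10 of 12 rose and 1 fell, and in Fadu 2 of 13 rose and 8 fell. DDX3X, an RNA helicase of scanning, rose in A375 (log2 fold change 0.59 ± 0.03, adjusted p = 1.19e-14) and in Cal27 (log2 fold change 0.45 ± 0.03, adjusted p = 1.75e-12). PABPC1, the poly(A)-binding protein, fell in Hth83 (-0.38 ± 0.04) and Fadu (-0.24 ± 0.03) and was at -0.02 and 0.02 in Cal27 and A375, where the sign turned on the TPM scale (0.22, Cal27) and with the exon length and GC trend removed (-0.07, A375). Of the 6 genes of the mTOR arm 2 rose and 2 fell in Cal27, 4 rose and 0 fell in A375, 1 rose and 3 fell in Fadu and 2 rose and 0 fell in Hth83. MTOR rose in Cal27 (log2 fold change 0.35 ± 0.04, adjusted p = 7.60e-09), LARP1, which binds TOP mRNAs, fell in Fadu (log2 fold change -0.55 ± 0.03, adjusted p = 5.12e-30) and rose in A375 (0.28 ± 0.03), and RPTOR rose in Hth83 (0.31 ± 0.06). DOHH, an enzyme that makes the hypusine of eIF5A, fell in Cal27 (-0.51 ± 0.06) and rose in A375, Fadu and Hth83 (0.59, 0.54 and 0.58). EIF5A fell and rose in the same lines. Of 6 elongation partners 0 rose and 4 fell in Cal27, 3 and 2 in A375, 3 and 0 in Fadu and 3 and 1 in Hth83. EEF1A2, the paralog of EEF1A1 that muscle and neurons use, fell in A375, from 52.6, 57.3 and 63.5 CPM untreated to 20.6, 24.5 and 21.1 CPM treated (log2 fold change -1.38 ± 0.07, adjusted p = 1.33e-15). EIF5A2, the rarer paralog of EIF5A, rose in Hth83, from 32.6, 29.4 and 27.8 CPM untreated to 41.3, 45.0 and 50.8 CPM treated (log2 fold change 0.61 ± 0.08, adjusted p = 1.18e-07). Of 9 mitochondrial translation factors 0 rose and 3 fell in Cal27, 4 and 1 in A375, 4 and 2 in Fadu and 1 and 3 in Hth83. The mitochondrial elongation factor TUFM fell in Cal27 (-0.28 ± 0.04, 0.06 with the exon length and GC trend removed) and rose in Fadu (0.50 ± 0.03). Of 3 termination and recycling genes 1 rose and 1 fell in Cal27, 3 and 0 in A375, 1 and 2 in Fadu and 2 and 0 in Hth83. ABCE1, which splits terminated ribosomes, rose in all 4 lines, by 0.23, 0.46, 0.33 and 0.17. In the deposited TPM the 47 members together made up 2.06% to 2.10% of untreated and 2.14% to 2.15% of treated Cal27 libraries, 2.03% to 2.07% against 1.95% to 1.96% in A375, 1.74% to 1.75% against 1.68% to 1.73% in Fadu and 2.22% to 2.26% against 1.97% to 2.04% in Hth83. Of the counts they made up 2.71% to 2.77% of untreated and 2.65% to 2.66% of treated Cal27 libraries, the opposite direction. The count shares were 2.49% to 2.54% against 2.38% to 2.39% in A375 and 2.21% to 2.23% against 2.20% to 2.23% in Fadu. In Hth83 they were 2.68% to 2.75% against 2.31% to 2.36%.

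**Figure D5:**
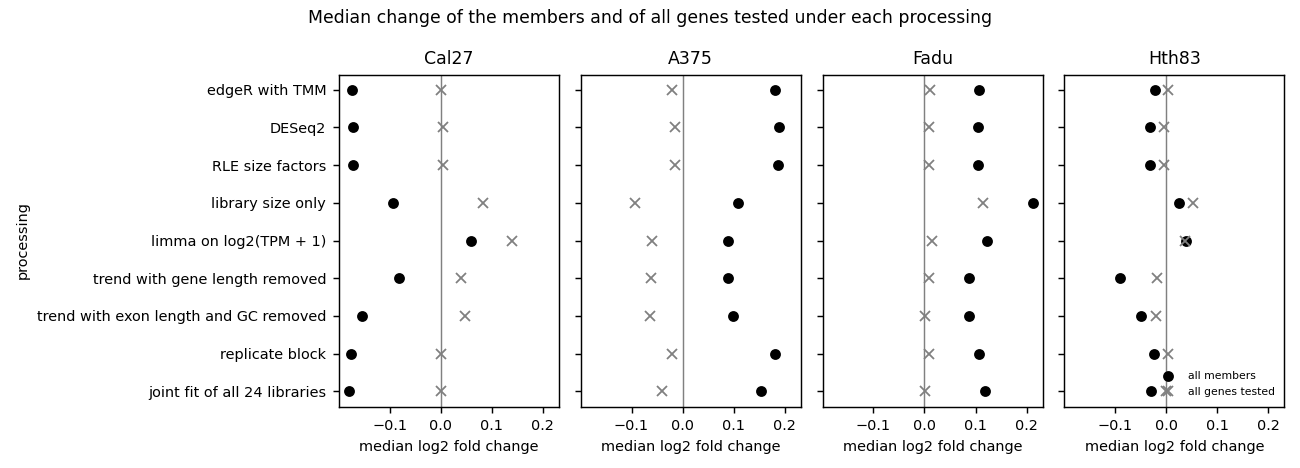
Median log2 fold change of the 46 members (filled circles) and of all genes tested (crosses) in each line under 9 ways of processing (vertical axis). In Cal27 the members lie at -0.17 with TMM and 0.06 on log2(TPM + 1), below all genes in each row, and in A375 and Fadu they lie above all genes in each row.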

How the data were processed

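RNA-seq of 4 cell lines, 3 untreated and 3 treated libraries each, was analysed from the counts per gene and the TPM that the authors deposited for each line. The submitters' processing notes name HISAT2 and the build GRCh38. Per the labels' protocols, RNA was taken with Trizol and the SMARTER kit gave libraries for a HiSeq3000. No source used here names the counter, annotation or strand setting. The length that turns counts into the deposited TPM was within 10% of the gene span in GENCODE 29 for 94.5% of 15040 genes and within 10% of the exon length for 6.78%, so levels between genes were recomputed per exon length. Genes were matched by identifier without its version (61369 from a symbol table, 149 from GENCODE 29, 15 unnamed).

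Genes passing filterByExpr (a count of 10, a total of 15) were tested with edgeR 4.0.16 (TMM, robust quasi-likelihood F test, R 4.3.3), line by line and, for differences between lines, in a joint fit of 8 group means, with Benjamini-Hochberg adjustment over all genes and a threshold of 0.05. On simulated counts the edgeR test recovered 100% of doubled or halved genes in each line and 57% (Cal27), 64% (A375), 60% (Fadu) and 57% (Hth83) of genes changed 1.2-fold, with 5.42%, 6.82%, 5.33% and 10.8% of calls false. The simulation gave all genes the same dispersion and changed few genes, evenly up and down. In the real libraries 45.1% to 53.3% of genes were called, so those rates need not hold here. Alternatives were DESeq2 1.42.0, its size factors, library size alone, other filters, no robust dispersion, a replicate block, limma 3.58.1 on log2(TPM + 1) (pseudocount of 1), removal of trends with gene length or with exon length and GC, pseudogene counts added to their parent genes, the joint fit, and each library left out. Members named with all libraries were the 3 largest rises and falls per line with non-overlapping libraries and at least 10 CPM, and a panel of 12 genes. All libraries are also given for EIF3D, EIF3I, EIF4B, EIF4G1 and EIF6 in some lines where they met neither rule. Some others are given by value. The members and lists were chosen with earlier results of these data known. Promoter and start sequences came from RefSeq.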

Additional observations from a re-analysis of the deposited data

Results flagged for a closer look

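Effects of plasma in opposite directions stood out for 35 of the 46 members: each rose in at least 1 line and fell in at least 1 other by edgeR's test, and its line by treatment interaction passed in the joint fit of 24 libraries. A rise in 1 line and a fall in another was also seen in 44.5% of all genes tested in the 4 lines, and it rests for Cal27 on the TMM scale. Outside Cal27 some of these calls were also lost or changed sign in an alternative. Among them were the Fadu rise of EIF4EBP1 and the Fadu fall of EIF4E, which the count for those members needs. The interaction tests whether the effects are unequal, not whether their signs are opposite. Among the eIF1 and eIF2 group the adjusted p of the interaction was 1.02e-15 for EIF1AX, 1.75e-10 for EIF1B, 1.12e-10 for EIF2S1 and 5.33e-08 for EIF2S3. Among the eIF2B subunits the adjusted p of the interaction was 4.32e-12 for EIF2B1, 9.35e-16 for EIF2B2, 1.22e-10 for EIF2B3, 9.53e-15 for EIF2B4 and 8.46e-05 for EIF2B5. Among the eIF3 subunits the adjusted p of the interaction was 1.02e-11 for EIF3A, 3.84e-15 for EIF3B, 2.69e-19 for EIF3D, 1.21e-14 for EIF3G, 1.03e-13 for EIF3H, 6.97e-17 for EIF3I, 6.83e-10 for EIF3J, 2.95e-12 for EIF3K, 1.23e-11 for EIF3L and 1.36e-13 for EIF3M. Among the eIF4 group the adjusted p of the interaction was 1.47e-16 for EIF4A3, 3.35e-18 for EIF4B, 1.7e-11 for EIF4E, 4.98e-09 for EIF4E2, 9.16e-12 for EIF4EBP1, 1e-25 for EIF4EBP2, 2.82e-21 for EIF4G1, 1.95e-14 for EIF4G2, 7.33e-07 for EIF4G3 and 0.000109 for EIF4H. Among the eIF5 and eIF6 group the adjusted p of the interaction was 3.34e-19 for EIF5, 5.01e-24 for EIF5A, 1.47e-12 for EIF5B and 5.12e-22 for EIF6. Among the elongation genes the adjusted p of the interaction was 6.63e-11 for EEF1B2 and 7.12e-14 for EEF2K.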

How the results depend on the processing

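Over the choices of DESeq2, its size factors, other filters on low counts, no robust dispersion and a joint fit, the values of the 46 members in 4 lines kept the call in 1085 instances, lost it in 12 and gained it in 7. Direction was compared only where the main or the alternative fit passed, and there 0 were reversed. Values past the test in neither fit count as kept even where their sign changed. Such values are also absent from the opposite signs listed below. Leaving out 1 library kept 1059, lost 40 and gained 5. Scaling mattered more, and the trend with exon length and GC was removed as a choice made after the values were seen. In Cal27 the count of members that rose was 19 and that fell 5 on the log2(TPM + 1) scale, beside 6500 and 1200 of all 17371 genes tested. The Cal27 median was -0.093 with library size alone, 0.059 on the TPM scale, -0.082 with the gene length trend removed and -0.15 with that of exon length and GC. The A375 median was 0.11, 0.089, 0.089 and 0.099 in the same order, 0.16 with a CPM of at least 1 in 3 libraries and 0.15 in the joint fit. In Fadu 8 members fell with library size alone and 9 on the TPM scale, and the median was 0.21, 0.12, 0.088 and 0.087 in the same order, 0.097 with no filter or with pseudogene counts added, and 0.12 with a CPM of at least 1 or in the joint fit. The Hth83 median was 0.025 with library size alone, 0.039 on the TPM scale and -0.090 with the gene length trend removed. With 1 library left out, members that rose and fell numbered 7 and 27 to 30 in Cal27 (median -0.18 to -0.16), 23 to 25 and 14 to 15 in A375 (0.16 to 0.19), 22 to 25 and 11 to 13 in Fadu (0.097 to 0.13) and 15 to 16 and 18 to 21 in Hth83 (-0.056 to 0.00028), and the interaction passed for 45. In Cal27 on the log2(TPM + 1) scale, the log2 fold change had the opposite sign for EIF1AX (0.14), EIF2S1 (0.10), EIF2A (0.013), EIF2D (0.20), EIF2B5 (0.096), EIF3B (0.056), EIF3D (0.083), EIF3E (0.17), EIF3F (0.017), EIF3H (0.057), EIF4A3 (0.036), EIF4E (0.15), EIF4E2 (0.14), EIF4G1 (0.23), EIF4H (0.091), EEF1A1 (0.13), EEF1D (0.15), EEF2 (0.061) and PABPC1 (0.22). In Cal27 with the trend with gene length removed, the log2 fold change had the opposite sign for EIF1AX (0.0090), EIF1B (0.020) and EIF2B5 (0.014). In Cal27 with pseudogene counts added, the log2 fold change had the opposite sign for EIF4A1 (-0.050). In Cal27 with the trend with exon length and GC removed, the log2 fold change had the opposite sign for EIF4A2 (-0.13), EIF4EBP1 (0.14), EIF4G2 (-0.11), EIF4G3 (-0.033), EIF4H (0.046), EEF2 (0.053), TUFM (0.063) and EIF2AK4 (-0.068). In A375 with the trend with gene length removed, the log2 fold change had the opposite sign for EIF3M (-0.083). In A375 with the trend with exon length and GC removed, the log2 fold change had the opposite sign for EIF4H (-0.075) and PABPC1 (-0.068). In Fadu with library size alone, the log2 fold change had the opposite sign for EIF3A (0.034), EIF4G3 (0.0035) and EIF4H (0.068). In Fadu with the trend with exon length and GC removed, the log2 fold change had the opposite sign for EIF3A (0.040), EIF3E (0.026), EIF3F (0.14), EIF4E (0.030), EIF4EBP1 (-0.040) and EIF4G3 (0.015). In Fadu with the trend with gene length removed, the log2 fold change had the opposite sign for EIF3E (0.083), EIF4A2 (-0.069) and EIF4G3 (0.12). For the values that moved or changed sign the cause was not tested. The labels do not say that replicate numbers pair the samples. Same-numbered deviations correlated between -0.11 and 0.09, and differently numbered ones between -0.13 and 0.18. In Fadu the same-numbered values were 0.066, 0.064 and 0.029, and the others at most 0.010. Such small correlations cannot decide whether samples were paired. A fit with the replicate number as a block gave 7 that rose and 29 that fell in Cal27, 24 and 15 in A375, 25 and 14 in Fadu and 16 and 20 in Hth83. Counts of EIF4A1 were few and EEF1G had none.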
